A study of Mus musculus with 18 samples.

Results

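Regulatory T cells (Tregs) sorted from injured quadriceps muscle were compared with Tregs sorted from wounded skin, both on day 7 after injury. The comparison holds 6 of the 18 bulk RNA sequencing libraries of the series, 3 of muscle and 3 of skin, and its members were chosen by the tissue named in the labels and not by any measured value. All mice were males aged 10 weeks that carried the Foxp3(DTR/GFP) allele, a reporter in which the Foxp3 locus also drives a diphtheria toxin receptor and a green fluorescent protein, and the spleen controls carried it too. Muscle mice had a volumetric muscle loss defect, in which a block of quadriceps is removed, and skin mice had full-thickness punch-biopsy wounds. Each muscle and skin library was made from the pooled cells of 3 mice. P-values therefore measure the spread between libraries and not between single mice, and they also rest on the spleen and bone libraries of the fit. The series also holds 6 spleen libraries from uninjured mice of the same strain, sex and age, for which pooling is not stated, 3 libraries of injured cranial bone and 3 of infarcted heart. Uninjured muscle and skin were not analysed here, so the tissue and the kind of injury cannot be told apart.

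Tregs are CD4 T cells that depend on the transcription factor Foxp3 and restrain other immune cells. Those that settle in non-lymphoid tissue lose part of the program of circulating lymphocytes and gain receptors for tissue signals, such as the interleukin-33 receptor, and repair factors, such as amphiregulin. Tregs can also take up transcription factors and chemokine receptors of the helper T cells around them, for example T-bet and CXCR3 of type 1 responses or Ahr and CCR6 of type 17 responses. Integrins and chemokine receptors help set where such cells stay, and Notch ligands act on the cells they touch.

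The libraries carry names in 2 styles, called Endo and Tregs here, and the labels say nothing else about them. All 3 muscle libraries had the Tregs style and all 3 skin libraries the Endo style, so naming style and tissue cannot be told apart in these 6 libraries alone and no value within a style can be given. Spleen carried both styles, Endo in replicates 1 to 3 and Tregs in replicates 4 to 6. Each gene was therefore tested in 2 ways on 15 libraries (bone, muscle, skin and spleen): once directly, and once with naming style in the model, which takes from the difference between muscle and skin the difference between the spleen libraries of the 2 styles. Fold changes are log2 values of muscle over skin, positive where muscle was higher. They carry the style term unless called direct. Tests against spleen carry it too, so muscle was set against Tregs-style spleen and skin against Endo-style spleen. Levels are counts per 1000000 counts of the scaled library size (CPM), and a gene passed a test at an adjusted p (false discovery rate, FDR) under 0.05.

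Of 15617 genes tested, 749 (4.8%) differed directly, 395 higher in muscle (2.53%) and 354 higher in skin (2.27%). With naming style in the model 205 genes passed (1.31%), 97 higher in muscle (0.621%) and 108 higher in skin (0.692%). A total of 126 genes (0.807%) passed in both fits with the same sign, 73 higher in muscle (0.467%) and 53 higher in skin (0.339%), and no gene passed in both with opposite signs. Between the 2 styles of spleen libraries 741 genes differed (4.74%), 482 higher (3.09%) and 259 lower (1.66%) in the Tregs style. Of the 749 direct calls, 56 also differed between spleen styles, 53 of them in the same direction as muscle and skin. With the term 623 of the 749 did not pass, and the median SE over all genes tested was 0.434 with the term and 0.322 without it. The median fold change of all genes tested was 0.019, and directly 0.0022. Counts in both fits depended on single libraries. Here and below, the single libraries left out were those of muscle, skin and spleen, not of bone. The 73 genes higher in muscle became 42, 39, 34, 46 and 38 without muscle replicate 3, skin replicate 1, skin replicate 3, spleen replicate 2 and spleen replicate 5. The 53 higher in skin became 99, 29, 22 and 30 without muscle replicate 1, muscle replicate 3, skin replicate 2 and skin replicate 3. With the style term alone, without regard to the direct fit, counts ran from 42 (without skin replicate 3) to 164 (without spleen replicate 3) higher in muscle and from 47 (without skin replicate 2) to 364 (without spleen replicate 3) higher in skin. The spleen styles differed in 93 and 41 genes without spleen replicate 2, and in 1254 and 762 without spleen replicate 3, higher and lower in the Tregs style.

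**Figure D1:**
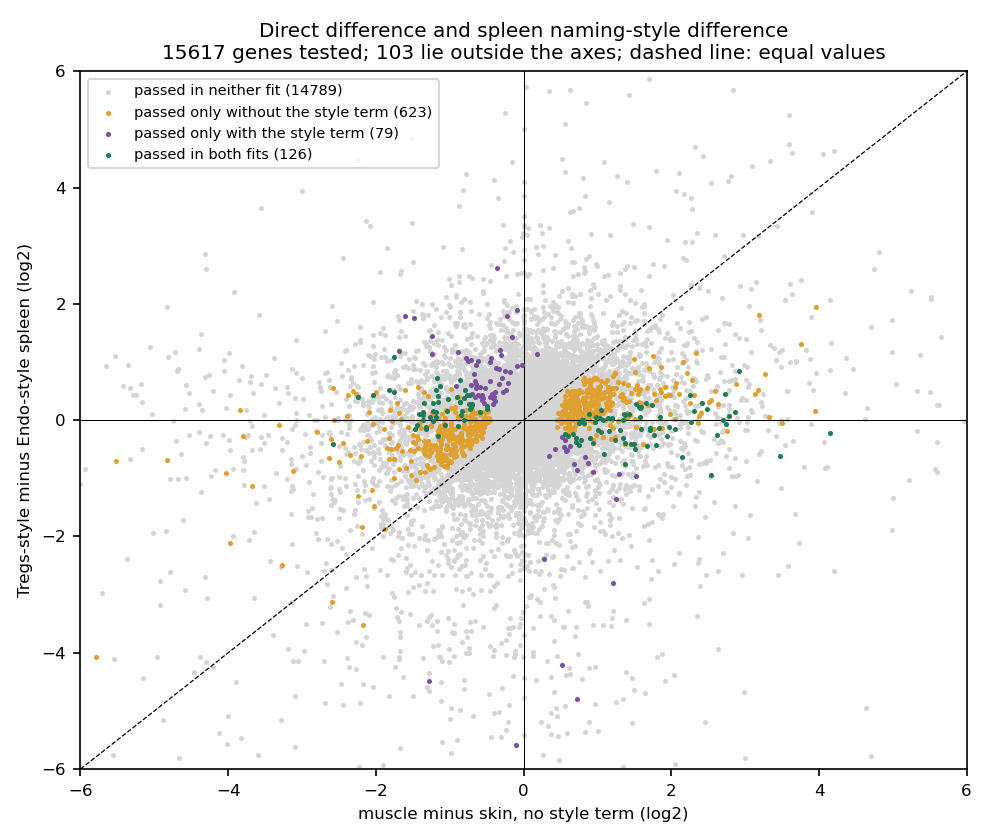
Each point is 1 of 15617 genes. The horizontal axis is the direct log2 difference of muscle and skin and the vertical axis the log2 difference of the 2 styles of spleen libraries. The 126 genes that passed in both fits lie mostly near the horizontal line, where spleen libraries of both styles had similar levels, and 53 of the 56 direct calls that also differed between spleen styles lie in the lower left and upper right.

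Total counts ran from 11582403 to 13358526 in muscle and from 8375212 to 11907745 in skin. Spleen totals were 5970346 to 7230842 in the Endo style and 13873680 to 15756884 in the Tregs style. Genes of ribosomal and other small structural RNA took 2.6% to 3.97% of counts in muscle, 3.16% to 4.67% in skin, 6.99% to 8.87% in Endo-style spleen and 8.29% to 12.7% in Tregs-style spleen. Muscle replicate 2 stood apart in genes of muscle fibres: Myh4, a fast myosin heavy chain, was at 0.249, 44 and 1.08 CPM in the 3 muscle libraries, Myh1 at 0, 17.6 and 0 and Des, the filament protein desmin, at 0.0830, 17.5 and 0.166. All of those genes were at 0 in skin and spleen. Without that library 83 genes were higher in muscle and 92 in skin. Muscle replicate 1 stood apart in other markers: Col3a1, a fibroblast gene, was at 18, 0.152 and 0 CPM in the 3 muscle libraries. Dcn, also of fibroblasts, was at 9.22, 0 and 0, and H2-Aa, a class II antigen presentation gene, at 147, 28 and 24.5. Fn1, Fbln1, Pdgfrb and Thy1 of the fibroblast markers were not highest there. Without muscle replicate 1, 110 genes were higher in muscle and 164 in skin. Skin libraries held traces of the keratinocyte genes Krt5 (0.183, 4.30 and 3.06 CPM) and Krt14 (1.10, 0.792 and 3.06 CPM), both at 0 in muscle and spleen. Lor, Flg and Krtdap of differentiated epidermis, and the keratinocyte adhesion gene Dsg3, were at 0 in muscle, skin and spleen. Of 17 skeletal muscle markers none passed, and neither did any of 16 keratinocyte markers, of which 6 in each list had enough counts to be tested.

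The labelled cell type was checked against its defining genes. Foxp3 stood at 579, 793 and 759 CPM in the 3 muscle libraries and at 829.6, 816 and 718 in skin, above the 350.5 to 450.0 of spleen, and the groups overlapped. Its fold change was -0.15 ± 0.20 (SE, adjusted p = 0.827) with a 95% interval of -0.56 to 0.26. Cd4 was at 538, 779 and 748 CPM in muscle and 574, 558 and 556 in skin, and Cd3e, a chain of the T cell receptor complex, at 370.2, 541 and 437 in muscle and 374, 343 and 329.5 in skin. Ikzf2 (Helios), which stabilises the Treg fate, was at 1589, 1718 and 1648 CPM in muscle and 1856, 2002 and 2133 in skin (-0.40 ± 0.20, adjusted p = 0.421). Il2ra, the alpha chain of the interleukin-2 receptor, was at 822, 1413 and 1043 CPM in muscle and higher in all 3 skin libraries, at 1509, 1879 and 1726. It passed directly (-0.64 ± 0.17, adjusted p = 0.0301) and not with the style term (-0.60 ± 0.23, adjusted p = 0.233). In bulk RNA, fewer cells of a type and less RNA per cell cannot be told apart, which holds for every gene below.

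Genes induced by interferons were the list with the most calls on the muscle side. Of 24 tested, 4 passed in both fits, all higher in muscle, where 0.467% of all genes were. Directly 12 passed, again all higher in muscle (2.53% of all genes). The median fold change was 0.67, and 0.93 directly, and 22 of the 24 were positive, Gbp2 and Ifi27l2a being the exceptions. Levels of 15 of the 24 did not overlap between muscle and skin. The share of all genes without overlap is not given here, so this count has no reference.

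Iigp1, an immunity-related GTPase that attacks the vacuoles of parasites, stood at 68.6, 28.3 and 33 CPM in the muscle libraries and at 6.59, 7.13 and 5.61 in skin. All 3 skin libraries were far below both muscle and spleen, where it ran from 48.1 to 99.2. The fold change was 2.81 ± 0.44 (adjusted p = 0.00345). Ifit1, which binds foreign RNA, was at 64.1, 33.2 and 61.4 CPM in muscle and 9.15, 21.6 and 18 in skin (1.84 ± 0.37, adjusted p = 0.0117). Oas3, a sensor of double-stranded RNA, was at 38.3, 31.3 and 43.4 CPM in muscle and 9.79, 18.4 and 12.9 CPM in skin (1.87 ± 0.34, adjusted p = 0.00502). The fourth, Ifit2, averaged 36 CPM in muscle and 15.7 in skin (1.18 ± 0.27, adjusted p = 0.0316). The calls on Ifit1 and Oas3 were kept when any single library was left out (adjusted p up to 0.045 and 0.021) and lost without spleen replicates 1 and 2 together (adjusted p = 0.0632 and 0.0797), and that on Ifit1 also with all 18 libraries (0.17). Ifit2 lost its call without each library other than muscle replicate 2 and spleen replicates 3 and 6 (adjusted p up to 0.11).

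Further genes known as interferon targets were named after their values were seen. Irgm1, a regulator of the same GTPases, stood at 86.4, 55.8 and 66.2 CPM in muscle against 24.3, 30.6 and 29.1 in skin and 81.7 to 113 in spleen (1.49 ± 0.24, adjusted p = 0.0021). Ddx60, a helicase of RNA sensing, was at 46.9, 44 and 59.3 CPM against 18, 24.3 and 28.4 (1.67 ± 0.28, adjusted p = 0.00345). Slfn1, Lgals3bp and Nlrc5, the last an activator of class I antigen presentation genes, had fold changes of 1.66, 1.77 and 1.11 and passed in both fits. Tgtp2, another GTPase, was at 56.3, 24.6 and 34.4 CPM in muscle and 5.67, 9.96 and 8.42 in skin (2.30 ± 0.34, adjusted p = 0.00112). It shares long stretches with its neighbour Tgtp1 (9.38, 5.39 and 8.95 CPM in muscle and 0, 2.04 and 0.383 CPM in skin, adjusted p = 0.0917), and how reads were split between them is not known. Against spleen, 14 of the 24 listed interferon genes were lower in skin (12.8% of all genes) and 1 higher (15%), while in muscle 3 were lower (11.3%) and 3 higher (14.2%). Muscle was set against Tregs-style spleen and skin against Endo-style spleen, so these counts do not share a reference.

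Interferon-stimulated response elements are short DNA motifs in the promoters of such genes, bound by interferon regulatory factors and by the complex that type I interferon activates. Their core was searched as GAAA, 2 bases of any kind and GAAA again, or TTTC in the same way for the other strand, in the 250 bases before the start of each RefSeq promoter (GRCm38.p6). Of all 32851 promoters 978 (2.98%) held it, as did 3.46% of genes in at least 1 promoter. Among the 24 interferon genes 15 matched a promoter entry, and 10 of them held the motif, in 10 of 19 promoters. Ifit2, which passed in both fits, had no match in its promoters, and Iigp1 had no promoter entry. The motif also lay before listed genes that did not pass in both fits, among them Isg15, Ifit3 and Gbp2. Shown are 4 stretches chosen because they hold the motif and belong to genes higher in muscle in both fits, of which Ddx60 and Irgm1 are not in the list, 5′ to 3′ on the gene's own strand, with the motif in capitals:
Ifit1 (chr19:34640735-34640863, plus strand): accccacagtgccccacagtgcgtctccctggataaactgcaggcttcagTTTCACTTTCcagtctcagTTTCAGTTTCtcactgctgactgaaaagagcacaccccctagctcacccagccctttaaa
Oas3 (chr5:120777675-120777784, minus strand): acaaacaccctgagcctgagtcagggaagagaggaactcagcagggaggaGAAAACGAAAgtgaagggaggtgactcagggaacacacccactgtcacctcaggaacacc
Ddx60 (chr8:61927984-61928086, plus strand): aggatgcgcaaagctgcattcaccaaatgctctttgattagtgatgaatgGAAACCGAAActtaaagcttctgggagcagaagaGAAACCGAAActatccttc
Irgm1 (chr11:48871421-48871500, minus strand): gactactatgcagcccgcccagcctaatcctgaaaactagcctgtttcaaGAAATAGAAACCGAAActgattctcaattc
The motif began 104 and 85 bases before the start of Ifit1, 75 before that of Oas3, 53 and 19 before that of Ddx60, and 30 and 24 before that of Irgm1, where the 2 matches overlap. A match describes these letters and no binding was measured.

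Of the interferon genes that passed only directly, 3 were among the largest direct differences. Mx1, an antiviral GTPase, was at 33.4, 12.1 and 25.4 CPM in muscle and 2.20, 5.77 and 4.46 in skin, Rsad2, the enzyme viperin, at 34, 17.2 and 27.4 in muscle and 4.12, 5.54 and 6.50 in skin, and Ifit3 at 21.4, 14.3 and 29.1 in muscle and 3.11, 5.88 and 4.59 in skin. No muscle library overlapped a skin library in any of them. Direct fold changes were 2.52, 2.29 and 2.26 (adjusted p = 0.00795, 0.00174 and 0.00609), and with the style term adjusted p were 0.167, 0.134 and 0.144. Cxcl10, the interferon-induced ligand of CXCR3, was at 103, 70.4 and 91.3 CPM in muscle and 19.2, 18.9 and 21 in skin. In spleen it stood at 8.01, 9.12 and 10.3 CPM in the Endo style and 9.67, 23.3 and 22.3 in the Tregs style, and its fold change was 2.16 ± 0.35 directly and 1.16 ± 0.37 with the term (adjusted p = 0.00183 and 0.147).

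**Figure D2:**
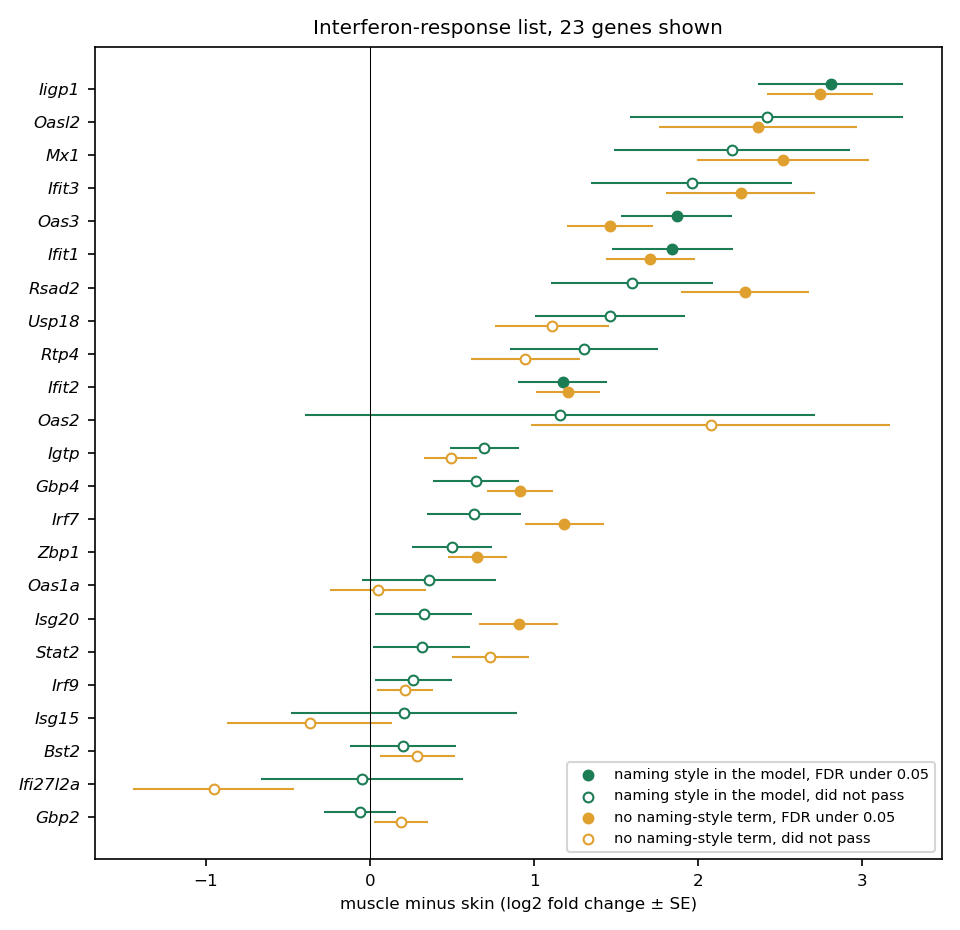
Log2 fold changes of muscle over skin for 23 of the 24 interferon-response genes, with SE, in the fit with naming style (green) and without it (orange); filled symbols passed FDR 0.05. Of the genes shown, 21 lie to the right of 0 in each fit, and 4 are filled in both.

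Type 1 helper genes had a higher mean in muscle in 12 of 12 cases, and 1 passed in both fits (0.467% of all genes). This was Cxcr3, the chemokine receptor of type 1 T cells (gene at chromosome X, 101731535 to 101734269, minus strand, GRCm38), which stood at 113, 85.3 and 99.3 CPM in muscle and 30.6, 35.8 and 26.9 in skin. Every muscle library was above every spleen library (37.7 to 81.1) and every skin library below them. The fold change was 2.12 ± 0.26 (adjusted p = 0.000125), and the call was kept in all 25 alternative analyses. Tbx21, which encodes T-bet, was at 48.1, 35.8 and 22.5 CPM in muscle and 13.4, 9.84 and 7.91 in skin without overlap. It passed directly (1.76 ± 0.35, adjusted p = 0.00578) and missed the threshold with the style term (1.92 ± 0.49, adjusted p = 0.0562). Ifng, the cytokine interferon gamma, was at 17.9, 8.73 and 10.4 CPM in muscle and 2.75, 2.15 and 2.42 CPM in skin (direct 2.33 ± 0.51, adjusted p = 0.0109; with the term 0.446). Directly 3 of the 12 passed, all higher in muscle (2.53% of all genes). The median fold change was 0.62, and 11 of the 12 were positive with the term.

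Ccl5, a chemokine of memory T cells, stood at 89.4, 66.4 and 62.4 CPM in muscle and at 35.6, 30.9 and 25.9 in skin, where it was close to spleen (17.4 to 28.9). Its fold change was 1.58 ± 0.28 (adjusted p = 0.00408) and was kept in every alternative. Nkg7, a granule membrane protein of cytotoxic cells, was at 67.6, 76.5 and 46.3 CPM in muscle and 27.4, 18.3 and 17.1 in skin (1.75 ± 0.35, adjusted p = 0.0116; lost without skin replicate 3, adjusted p = 0.053, in limma-voom, and without spleen replicates 1 and 2 together, up to 0.15). Gzma, granzyme A, ran the other way, at 4.48, 0.228 and 0.332 CPM in muscle and 23.4, 27.8 and 19 in skin, and passed directly (-3.80 ± 0.75, adjusted p = 0.00609) but not with the term (0.158). Gzmb, granzyme B, was at 277, 785 and 418 CPM in muscle and 1041, 965 and 802 in skin (-0.10 ± 0.67, adjusted p = 0.98). Of 12 granule genes Nkg7 was the one that passed in both fits. Markers of CD8 T and NK cells, which share granule genes, had sums between 33.1 and 50.3 CPM in muscle and between 42 and 46.8 in skin, and without Cd8b1 between 13.5 and 27.9 and between 18.7 and 33.2. None of the 9 tested passed. Klrc1, an NK cell receptor, was at 3.99, 3.11 and 3.23 CPM in muscle and 10.2, 9.84 and 12.4 in skin, without overlap, and its part in the Gzma values was not tested.

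Itga4, the alpha-4 integrin that lets lymphocytes bind VCAM-1 and MAdCAM-1, had the lowest adjusted p of the genes higher in muscle that are named here. It stood at 641, 858 and 870.5 CPM in muscle and 103, 119 and 136 in skin, a 4.82-fold difference with the style term (2.27 ± 0.25, adjusted p = 2.36e-05; chromosome 2, 79255426 to 79333123, plus strand). Spleen ran from 664 to 1330.0 CPM, so muscle was within the spleen range or just under it and skin far below it. Among the beta chains that pair with it, Itgb1 was at 408, 455 and 537 CPM in muscle and 218, 285 and 286 in skin and passed only directly (0.83 ± 0.18, adjusted p = 0.00959). Itgb7 overlapped, at 392, 669 and 634 CPM in muscle and 952, 588 and 571 CPM in skin.

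Other adhesion molecules were higher in skin. Itgb8, whose protein pairs with the alpha-v chain to activate latent TGF-beta, stood at 149, 164 and 114 CPM in muscle and 263, 369 and 305 in skin (-1.73 ± 0.28, adjusted p = 0.00221), against 59 to 127 in spleen. Its partner Itgav averaged 806 CPM in muscle and 850.0 in skin (adjusted p = 0.853). Cd81, a tetraspanin, was at 78.7, 103 and 108 CPM in muscle and 255, 257 and 211 CPM in skin (-1.20 ± 0.23, adjusted p = 0.0085), and Emb, the adhesion glycoprotein embigin, at 365, 497 and 499 in muscle and 837, 789.6 and 811 in skin (-0.99 ± 0.19, adjusted p = 0.00773). Itgae, the CD103 chain that binds E-cadherin of epithelium, was at 166, 269.8 and 264 CPM in muscle and 776, 612 and 524 in skin. The groups did not overlap and Itgae passed directly (-1.45 ± 0.22, adjusted p = 0.000774), while the style term left it above the threshold (-1.17 ± 0.30, adjusted p = 0.0579). Of 26 genes of integrins and adhesion, those that passed in both fits were 1 higher in muscle (Itga4) and 3 higher in skin (Itgb8, Cd81 and Emb).

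A Notch ligand was higher in skin and the Notch effector higher in muscle. Jag1, a ligand that Tregs present to Notch receptors of neighbouring cells, stood at 12.5, 15.6 and 22.9 CPM in muscle and 74.8, 85.9 and 81.1 in skin (chromosome 2, 137081456 to 137116644, minus strand). In spleen it ran from 1.94 to 4.49 CPM, so both tissues were above spleen and skin was 6.21-fold above muscle (-2.64 ± 0.41, adjusted p = 0.00176). The call was lost under limma-voom (adjusted p = 0.12) and kept in the other 24 alternatives. Rbpj, the DNA-binding factor through which Notch acts, was at 210.4, 242 and 199 CPM in muscle and 75.2, 83.8 and 91.8 in skin, where it was near the 56 to 105 of spleen (1.28 ± 0.24, adjusted p = 0.00558; kept in every alternative). Reads of its pseudogene Rbpsuh-rs3 had the same order (37.4, 58.5 and 54.5 CPM in muscle and 14.4, 14.5 and 13 CPM in skin), and near-identical copies may share reads. Hey1, a Notch target, was at 1.58, 3.72 and 5.31 CPM in muscle and 10.2, 12.8 and 9.44 in skin and passed only with the style term (-3.40 ± 0.78, adjusted p = 0.0302). That call was lost without muscle replicate 2, without any single skin library, and without spleen replicate 2 or 5 (largest adjusted p 0.097). Of 13 Notch genes tested 1 was higher in muscle and 1 in skin in both fits, and the receptors Notch1 and Notch2 did not pass (adjusted p = 0.239 and 0.223).

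The alternative anchor of latent TGF-beta, Lrrc32 (GARP), was higher in muscle. It stood at 263, 226 and 201 CPM there and 121, 142 and 129.8 in skin, on either side of spleen (150.1 to 191). The fold change was 0.80 ± 0.20 (adjusted p = 0.0485). This is a narrow call: leaving out any 1 of the 12 muscle, skin and spleen libraries other than spleen replicate 3 took it above the threshold (adjusted p up to 0.18). Of 16 TGF-beta genes tested Itgb8 and Lrrc32 were the ones that passed in both fits, and Tgfb1, Tgfbr1 and Tgfbr2 had fold changes of 0.07, 0.04 and -0.06.

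Ahr, Prdm1, Batf and Penk were higher in skin. Ahr, the receptor of aryl hydrocarbons and an environmental sensor of barrier tissues, stood at 68.4, 80.8 and 92.3 CPM in muscle and 184, 222 and 216 in skin. Both groups were above spleen (28.1 to 37.5) and did not overlap, with a fold change of -1.46 ± 0.21 (adjusted p = 0.000666) kept in every alternative. Prdm1, which encodes Blimp-1, was at 147, 214 and 173 CPM in muscle and 308, 303 and 314 CPM in skin (-1.31 ± 0.25, adjusted p = 0.00667; lost without spleen replicates 1 and 2 together, 0.083). Batf, a partner of IRF4, was at 67.8, 57.4 and 39.3 CPM in muscle and 152, 129 and 93.2 in skin (-1.33 ± 0.33, adjusted p = 0.0477). The Batf call was lost without muscle replicate 2 or 3, skin replicate 1 or 2, or spleen replicate 1, 2 or 5 (largest adjusted p 0.13). Penk, which encodes proenkephalin, the precursor of opioid peptides made by tissue Tregs, was at 146, 158 and 136 CPM in muscle and 375, 400.0 and 255 CPM in skin (-1.22 ± 0.27, adjusted p = 0.0278), a call lost without muscle replicate 3, skin replicate 1 or 2, or spleen replicate 1, 2 or 6 (up to 0.081).

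Within a list of 24 genes of tissue repair and effector Tregs, 2 were higher in muscle and 3 in skin (Prdm1, Batf and Penk) in both fits. Those in muscle were Rbpj and Fgl2, a secreted suppressive protein. Fgl2 was at 478, 756 and 467 CPM in muscle and 304, 366 and 374 in skin (1.09 ± 0.25, adjusted p = 0.0272), and its call was lost without muscle replicate 2, any single skin library or spleen replicate 4 (up to 0.086). The list's median was -0.28, and -0.2 directly, and 21 of its 24 genes were above spleen in muscle (14.2% of all genes) and 20 in skin (15%). Nfil3, a leucine-zipper factor of cytokine and clock control, passed with the style term (-2.69 ± 0.25, adjusted p = 4.78e-06) but not directly (-1.24 ± 0.41, adjusted p = 0.111). Its levels were 121, 135 and 114 CPM in muscle, 299, 299 and 274 in skin, 14.8, 12.1 and 13.9 in Endo-style spleen and 30.5, 48.3 and 33.3 in Tregs-style spleen, so the 2 spleen styles differed as well (1.45, adjusted p = 0.000277).

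Icos, Gpr183, Il7r, Socs3 and Fas, which come from separate lists or from none, were higher in skin. Icos, a costimulatory receptor, stood at 1138, 1513 and 1304 CPM in muscle and 2330.0, 2312 and 2557 in skin (-1.18 ± 0.22, adjusted p = 0.00588), against 186 to 268 in spleen. Gpr183, a receptor for oxysterols that guides lymphocytes within tissue, was at 132, 134 and 129.5 CPM in muscle, close to the 98.1 to 116 of spleen, and at 319, 378 and 317 in skin (-1.35 ± 0.18, adjusted p = 0.000425; kept in every alternative). Il7r, a survival cytokine receptor, was at 385, 549.8 and 549.8 CPM in muscle and 726, 986 and 994 CPM in skin (-1.18 ± 0.27, adjusted p = 0.0316), a call lost without muscle replicate 1, skin replicate 2 or 3, or spleen replicate 2, 4 or 5 (up to 0.081). Socs3, an inhibitor of cytokine signals through gp130, was at 41.8, 38.6 and 61.5 CPM in muscle and 141, 101 and 91.3 in skin (-1.52 ± 0.29, adjusted p = 0.00758). Fas, the death receptor, was at 38.1, 32.2 and 26 CPM in muscle and 62.1, 83.8 and 70.0 CPM in skin (-1.47 ± 0.31, adjusted p = 0.0151), a call lost without muscle replicate 3 or skin replicate 2 (up to 0.057) and named after its values were seen. Spleen levels of Fas, at 29.2 to 53 CPM, overlapped muscle and lay below skin.

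**Figure D3:**
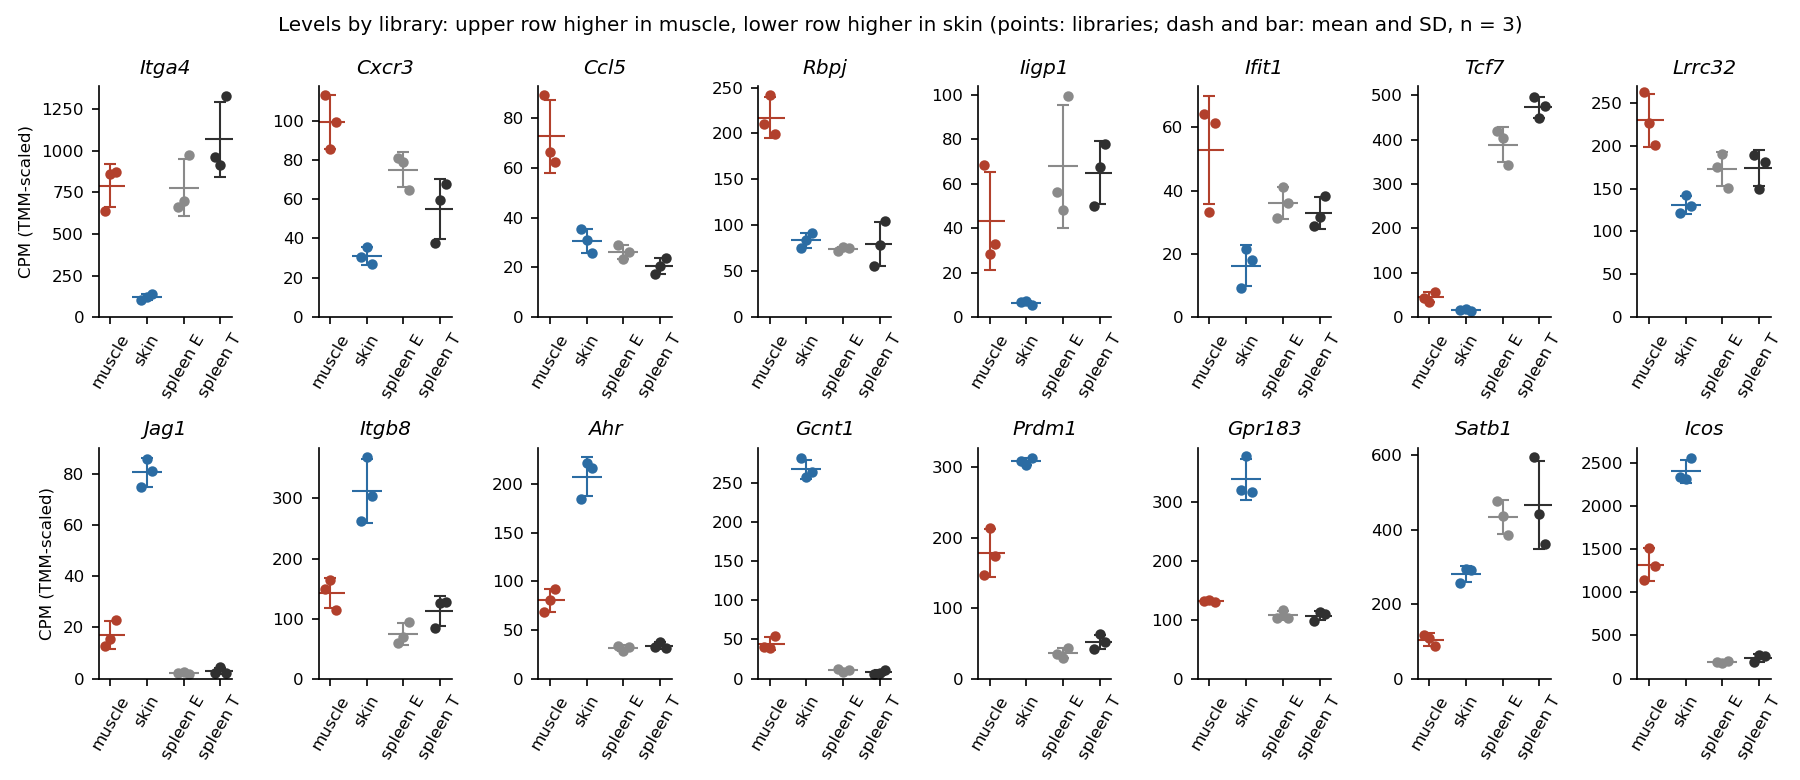
CPM in each library for 16 genes that passed in both fits, in muscle, skin, Endo-style spleen (E) and Tregs-style spleen (T), with the mean and SD of 3 libraries as dash and bar; each axis starts at 0. In the upper row the 3 muscle libraries lie above the 3 skin libraries, as for Itga4, and in the lower row the 3 skin libraries lie above muscle, as for Jag1.

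The 12 genes with the largest fold changes higher in skin, among those that passed in both fits without overlap, included Jag1 and Itgb8 and further genes of other roles. Cdc42bpb, a kinase of the actin cytoskeleton, stood at 16.2, 8.88 and 12.8 CPM in muscle and 38.4, 46.5 and 43 in skin (-2.84 ± 0.42, adjusted p = 0.000848), with spleen at 1.40 to 5.17. Gcnt1, the enzyme that builds core 2 O-glycans, including those carried by selectin ligands, was at 40.6, 38.5 and 54.5 CPM in muscle and 281, 258 and 263 in skin (-2.17 ± 0.34, adjusted p = 0.00221; kept in every alternative). Sbno2, a corepressor induced by interleukin-10, was at 101, 104 and 98.1 CPM in muscle and 241, 234 and 214 CPM in skin (-1.70 ± 0.19, adjusted p = 2.36e-05), with little spread in either group. Satb1, a chromatin organiser of T cells, was at 118, 110.3 and 86.4 CPM in muscle and 257, 294 and 292 in skin (-1.53 ± 0.23, adjusted p = 0.00112). Here both tissues were below spleen (361 to 596), muscle further than skin.

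The remaining genes of the 12 largest in skin were Sh3bp4, Gla, Adam9, Dusp16, Zfp53 and Rpph1. Sh3bp4, an adaptor of receptor endocytosis, had a fold change of -2.24, and Gla, a lysosomal galactosidase, of -1.90. Adam9, a membrane protease, had -1.65, Dusp16, a phosphatase of JNK and p38 kinases, -1.58, and Zfp53, a zinc-finger gene, -1.55. Of the 12, 9 kept the call when any single library was left out and 5 in all 25 alternatives. Sh3bp4 lost it without spleen replicate 1 or 4, Adam9 without muscle replicate 3, skin replicate 2 or 3 or spleen replicate 2 or 5, and Dusp16 without skin replicate 2 (largest adjusted p 0.059, 0.065 and 0.059). Rpph1, the RNA component of RNase P, is a small structural RNA, at 486, 440.3 and 198 CPM in muscle, 2052, 1102 and 1446 in skin and 2288 to 3709 in spleen (-2.47 ± 0.37, adjusted p = 0.00345). Its call was lost without spleen replicates 1 and 2 together (adjusted p = 0.134) and with all 18 libraries (0.42). The share of small structural RNA, given above, overlapped between muscle and skin.

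Genes of naive and circulating lymphocytes were below spleen in both tissues, 15 of 18 in muscle (11.3% of all genes) and 16 in skin (12.8%), and differed between the tissues in either direction. Tcf7, the factor TCF-1 of naive and memory-like T cells, stood at 43.7, 34.2 and 57.1 CPM in muscle and 15.3, 17.4 and 14.4 in skin, against 344 to 496 in spleen (1.23 ± 0.24, adjusted p = 0.00793). Bcl2, the survival protein, was at 18.2, 12.8 and 16.2 CPM in muscle and 2.93, 6.56 and 6.63 in skin, against 203 to 276 in spleen (1.37 ± 0.30, adjusted p = 0.0211; lost without muscle replicate 3, skin replicate 1 or spleen replicate 2 or 5, up to 0.071). Gpr83, a receptor of resting Tregs, was at 2.99, 6.45 and 4.14 CPM in muscle and 1.56, 1.36 and 0.510 CPM in skin against 108 to 162 (2.20 ± 0.44, adjusted p = 0.0123; lost without skin replicate 3, adjusted p = 0.051, and in 5 other analyses, up to 0.32). In each of them both tissues lay far below spleen, and skin lay further below it than muscle. Bach2, a repressor that holds Tregs in a resting state, was at 11.7, 8.43 and 18.6 CPM in muscle and 2.47, 8.26 and 4.08 CPM in skin and passed only directly (1.40 ± 0.31, adjusted p = 0.015). Of the 18 genes, 2 passed in both fits higher in muscle (Tcf7 and Bcl2) and 2 in skin (Satb1 and Il7r). Ccr7 and S1pr1, receptors of lymphocyte recirculation, and the naive T cell factor Lef1 had fold changes of 0.73, 0.04 and 0.07 with adjusted p of 0.725, 0.981 and 0.937.

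The 12 genes with the largest fold changes higher in muscle, chosen by the same rule, were Iigp1, Tgtp2, Itga4, Cxcr3 and Oas3, given above, and P2rx7, Eya2, Adam8, Serpina3g, Asb2, Tmem86b and Podnl1. P2rx7, the receptor for extracellular ATP that can kill T cells, was at 16.7, 27.3 and 30.3 CPM in muscle, 1.92, 7.58 and 1.27 in skin and 149.8 to 202 in spleen (2.71 ± 0.57, adjusted p = 0.0428). Eya2, a transcriptional cofactor, was at 17.2, 19.9 and 31.5 CPM in muscle and 4.94, 5.09 and 6.50 in skin, with spleen between them at 8.85 to 13.4 (2.21 ± 0.39, adjusted p = 0.00408). Adam8, a membrane protease of leukocytes, was at 156, 239 and 179.5 CPM in muscle and 103, 45.7 and 72.3 CPM in skin against 6.44 to 16 in spleen (2.12 ± 0.36, adjusted p = 0.00408). Serpina3g, an inhibitor of cathepsin B that belongs to a cluster of near copies, was at 132, 76.7 and 95.8 CPM in muscle and 34.9, 31.2 and 23.5 in skin (2.01 ± 0.27, adjusted p = 0.000425). Of the 12 largest in muscle, 9 kept the call when any single library was left out and 6 in all 25 alternatives. P2rx7 lost it without each library other than muscle replicate 1, skin replicate 2 and spleen replicates 3 and 6 (adjusted p up to 0.1). Asb2 lost it without each other than muscle replicate 1 and spleen replicates 1 and 6, and Tmem86b without each other than muscle replicate 2 and spleen replicates 1 and 3 (up to 0.14 and 0.17). Gimap3 and Gimap4, GTPases of lymphocyte survival named after their values were seen, had fold changes of 1.25 and 1.32, passed in both fits and were kept in every alternative.

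Type 17 helper genes had a higher mean in skin in 12 of 12 cases before the style term. With the term 9 of the 12 had negative fold changes. Ahr was the one that passed in both fits (0.339% of all genes), and 4 passed directly, all higher in skin (2.27%). The list's median was -0.41, and -0.96 directly. Il23r, the interleukin-23 receptor, was at 8.72, 16.2 and 8.79 CPM in muscle and 41.3, 46.8 and 49.7 in skin, against 0 to 1.29 in spleen. Il17a, the cytokine interleukin-17A, was at 1.41, 4.18 and 0.912 CPM in muscle and 16.6, 10.1 and 12 CPM in skin and at 0 in all 6 spleen libraries, so that no spleen comparison of the naming styles can be made for it. Ccr6, the receptor of CCL20, was at 50.9, 59 and 74.4 CPM in muscle and 112, 124 and 128 CPM in skin, and at 36, 32.5 and 32.5 in Endo-style and 25.7, 16.6 and 19.1 in Tregs-style spleen (direct -0.98 ± 0.23, adjusted p = 0.0149; with the term 0.731). Markers of gamma delta T cells, which share these genes, had sums between 3.81 and 6.68 CPM in muscle, between 16.2 and 23.2 in skin and between 11.8 and 16 in spleen. Trdc, the delta chain constant region, was at 1.66, 2.66 and 1.91 CPM in muscle and 7.87, 8.49 and 9.31 in skin (direct -2.04 ± 0.41, adjusted p = 0.00601; with the term 0.113). Their part in the type 17 values was not tested.

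Several chemokine receptors were higher in skin directly. Of 22 genes of this list 1 was higher in muscle (Cxcr3; 0.467% of all genes) and 1 in skin (Gpr183; 0.339%) in both fits, while directly 6 were higher in skin (2.27%). Ccr8, a receptor of tissue Tregs, was at 156, 205 and 149.9 CPM in muscle and 300.5, 319 and 301 in skin, with 27.5, 29.5 and 25.7 in Endo-style and 26.4, 29.1 and 29.4 in Tregs-style spleen. It passed directly (-0.85 ± 0.18, adjusted p = 0.00982) and had a similar fold change with a larger error with the term (-0.89 ± 0.26, adjusted p = 0.104). Ccr10, a receptor of skin-homing T cells, was at 0, 1.44 and 1.24 CPM in muscle and 14.1, 9.96 and 10.7 in skin, against 0.997 to 5.84 in spleen (direct -3.67 ± 0.80, adjusted p = 0.0113; with the term 0.253). Cxcr4 passed only with the term (-1.64 ± 0.33, adjusted p = 0.0193), with a direct fold change of -0.62 ± 0.37 (adjusted p = 0.384). Its levels were 307, 274 and 283 CPM in muscle, 445, 465 and 421 in skin, 106, 70.5 and 85.1 in Endo-style and 204, 231 and 93 in Tregs-style spleen. That call was lost without muscle replicate 2 or 3, skin replicate 2 or spleen replicate 2 (up to 0.06).

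Genes for which tissue Tregs are best known did not all pass. Areg, the growth factor amphiregulin, stood at 259, 653 and 391 CPM in muscle and 642, 473 and 444 in skin with overlap, against 3.86 to 32.9 in spleen. Its fold change was -1.69 ± 0.62 with the term and -0.26 ± 0.54 directly (adjusted p = 0.268 and 0.857), and the 95% interval ran from -3.06 to -0.33. Il1rl1, the interleukin-33 receptor, was at 710.1, 1057 and 799 CPM in muscle and 1048, 1164 and 1086 CPM in skin (0.06 ± 0.24, interval -0.43 to 0.56). Il10 was at 116, 195 and 91.4 CPM in muscle and 108, 57.2 and 76.9 in skin. Its sign turned between the fits, -0.85 ± 0.53 with the term and 0.73 ± 0.52 without it, and spleen stood at 4.34, 2.63 and 8.90 CPM in the Endo style and 13, 20.9 and 14.9 in the Tregs style.

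Gata3, a factor of type 2 and tissue Tregs, was at 386, 592 and 461 CPM in muscle and 375, 496 and 487 in skin (interval -0.78 to 0.11), and Rora at 916, 1149 and 1086 in muscle and 916, 1116 and 1165 in skin (interval -0.66 to 0.28). Klrg1, a receptor of terminally differentiated Tregs, was at 367, 677 and 415 CPM in muscle and 621, 512 and 494 CPM in skin (0.81 ± 0.29, adjusted p = 0.218; direct -0.16). Havcr2, the inhibitory receptor TIM-3, was at 64.8, 107 and 59.9 CPM in muscle and 181, 140.3 and 136 in skin and passed directly (-0.98 ± 0.26, adjusted p = 0.0362) but not with the term (-1.52 ± 0.44, adjusted p = 0.106). Ctla4, the inhibitory receptor, did the reverse. It was at 1611, 1617 and 1261 CPM in muscle and 2625, 2103 and 2052 in skin, with a fold change of -1.17 ± 0.22 with the term (adjusted p = 0.00765) and -0.59 ± 0.21 directly (adjusted p = 0.105). These values do not show that the tissues were alike: the 95% interval of Areg reaches -3.06 on the log2 scale.

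**Figure D4:**
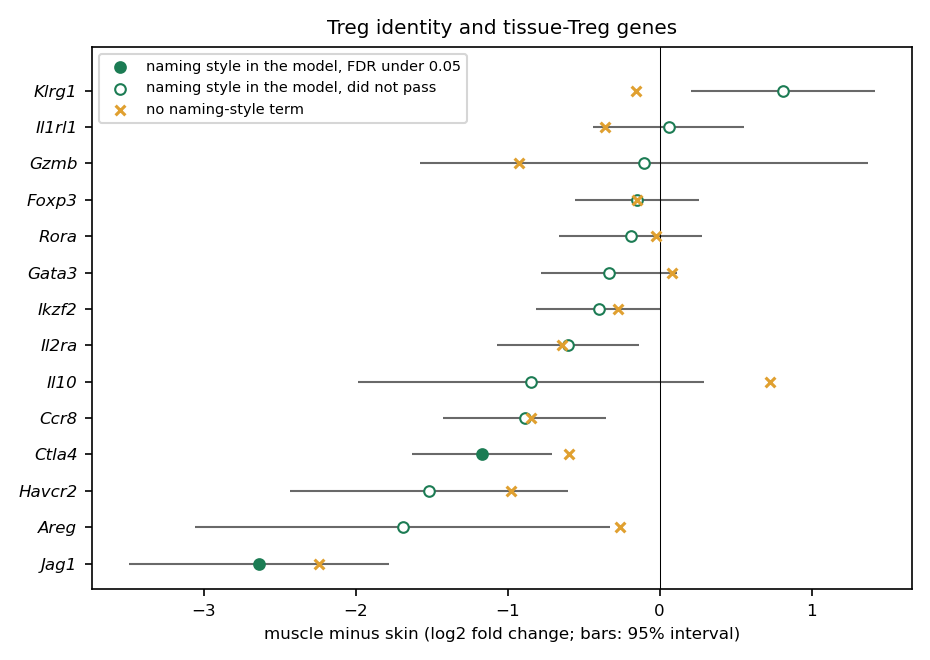
Log2 fold changes of muscle over skin for 14 genes of Treg identity and tissue Tregs, with 95% intervals in the fit with naming style and the direct value as a cross. Jag1 and Ctla4 passed with the style term, and Il10, Gata3, Il1rl1 and Klrg1 change sign between the fits.

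Genes of glycolysis and the hypoxia response had a median of -0.49 with the style term and -0.41 directly, and 22 of 26 were lower in muscle with the term. Of the 26, 7 passed directly, all higher in skin (2.27% of all genes). A further count, 14 without overlap and higher in skin, has no share over all genes beside it. Pkm, the last kinase of glycolysis, was at 521, 681 and 610.2 CPM in muscle and 1150.0, 1121 and 998 in skin (direct -0.85 ± 0.16, adjusted p = 0.00305). Slc16a3, the lactate exporter, was at 66.5, 44.6 and 47.5 CPM in muscle and 107, 107 and 96.4 CPM in skin, Hk2, the first kinase, at 20.2, 14.1 and 16.8 in muscle and 36, 30.3 and 27.3 in skin, and Ndrg1, a hypoxia-induced gene, at 106, 115 and 104 in muscle and 286, 288 and 304 in skin. With naming style in the model none of the 26 passed in edgeR, 9 had an unadjusted p under 0.05 (12.3% of all genes in either direction), all higher in skin, 5 passed in DESeq2 (2.66%) and 0 in limma-voom (0.48%). With the term the fold changes of Pkm, Slc16a3, Hk2 and Ndrg1 were -0.64, -1.17, -1.28 and -0.96 (adjusted p = 0.147, 0.0956, 0.0755 and 0.394), against -0.85, -0.97, -0.87 and -1.44 directly.

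Cell division genes differed between the spleen styles. All 24 mitosis genes had negative fold changes with the style term, with a median of -1.2, while the direct median was -0.15 and 7 of the 24 were positive. Top2a, a topoisomerase of dividing cells, averaged 328 CPM in muscle and 346 in skin. Between the spleen styles 4 of the 24 passed, all higher in the Tregs style (3.09% of all genes), with a median of 1.13. None of the 24 passed between muscle and skin in edgeR with the term, 13 had an unadjusted p under 0.05 (12.3% of all genes), 2 passed in DESeq2 and 0 in limma-voom. For the 24 S phase genes the counts were 0, 4, 0 and 0. Against Tregs-style spleen 17 of the 24 mitosis genes were higher in muscle (14.2% of all genes), and against Endo-style spleen 24 in skin (15%). The references differ, so these counts do not set the tissues side by side. Of 25 immediate early genes, which respond within minutes to stimulation and to tissue handling, 9 were higher in the Tregs style of spleen (3.09% of all genes). Between muscle and skin 19 of the 25 had positive fold changes directly (median 0.33), and 1 passed, higher in muscle (2.53% of all genes). With the term 18 were negative (median -0.43). In that list Dusp1 passed with the term (-1.27 ± 0.26, adjusted p = 0.0131) and not directly (-0.37 ± 0.29, adjusted p = 0.53).

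Genes that passed only with the term included further ones whose spleen styles stood apart, named after their values were seen. Rgs2, a brake on G protein signals, was at 899, 1048 and 1029 CPM in muscle and 1070.0, 1146 and 1111 in skin, against 109, 42.4 and 92.5 in Endo-style and 242, 235 and 179 in Tregs-style spleen (-1.58 ± 0.31; direct -0.16 ± 0.46). Gem, a small GTPase, was at 151, 249.7 and 197 CPM in muscle and 388, 387 and 330.4 CPM in skin, against 11, 6.67 and 12.3 in Endo-style and 23.4, 26.6 and 18.4 in Tregs-style spleen (-2.06 ± 0.29; direct -0.89 ± 0.35). Anxa1, a protein that restrains inflammation, was at 47.7, 82.2 and 59.4 CPM in muscle and 62.3, 42.7 and 51.3 in skin with overlap, against 5.50, 4.56 and 3.61 in Endo-style and 0.885, 1.36 and 0.285 in Tregs-style spleen (2.66 ± 0.46; direct 0.28 ± 0.55). For Rgs2 and Anxa1 the 6 muscle and skin libraries alone gave no call. Among genes with a mean of at least 3 log2 CPM, those with the largest direct difference that failed with the term were, in skin, Rn7s2, Rn7s1, Prune2, Mreg and Il1rn, and in muscle Mx1, Rsad2, Ifit3, Cxcl10 and Plagl1. Rn7s1 and Rn7s2, near-identical copies of the 7SL RNA, were higher in skin directly. Rn7s1 was at 7.89, 4.94 and 3.65 CPM in muscle and 72, 31.9 and 39.9 in skin, and Rn7s2 at 2.24, 2.81 and 2.15 and 61.7, 26 and 26.5, against 15 to 67.7 and 7.62 to 94.4 in spleen. Il1rn, the interleukin-1 receptor antagonist, was at 2.57, 4.94 and 3.15 CPM in muscle and 21.9, 13.6 and 16.2 CPM in skin, with spleen at 1.16 to 4.70 (direct -2.27 ± 0.49, adjusted p = 0.0101; with the term -2.72 ± 0.71, 0.0598). Mreg, a melanosome and phagosome transport protein, was at 8.72, 9.49 and 9.78 CPM in muscle and 40.7, 50.7 and 47 CPM in skin (direct -2.31; with the term -2.80, adjusted p = 0.169). Prune2 was at 2.16, 4.25 and 3.23 CPM in muscle and 18.9, 15.4 and 24.1 CPM in skin and changed sign with the term (direct -2.59; 0.54). Plagl1, a zinc-finger factor, was at 71.2, 27 and 41.7 CPM in muscle and 5.40, 10.1 and 18.1 in skin (direct 2.07; with the term 1.44, adjusted p = 0.225).

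Where the genes that passed in both fits stood against spleen was counted for each tissue on its own, against spleen of its own naming style. Both counts rest on spleen libraries that also enter the difference of muscle and skin, so they describe levels and are no further test. Of the 73 genes higher in muscle, 22 were above spleen in muscle, 24 below it and 27 did not pass. In skin 6 of the same 73 were above spleen, 55 below it and 12 did not pass, where 15% and 12.8% of all genes were above and below. Of the 53 genes higher in skin, 40 were above spleen in skin, 1 below it and 12 did not pass. In muscle 22 of those 53 were above spleen, 15 below it and 16 did not pass, with 14.2% and 11.3% of all genes above and below. Iigp1 and Itga4 belong to the first kind, lower in skin than in spleen, and Gcnt1, Jag1 and Ahr to the second, above spleen in skin.

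Some calls that survived the loss of any single library were lost in other analyses. Cdc42bpb, Emb, Gla, Socs3 and Icos lost theirs with all 18 libraries, an analysis chosen after seeing the data (adjusted p = 0.073, 0.073, 0.13, 0.12 and 0.051), Cdc42bpb also in limma-voom. Eya2 and Adam8 lost theirs in limma-voom (0.054 and 0.061), Tcf7 there and without spleen replicates 1 and 2 together (up to 0.087), and Lgals3bp without those replicates (0.054).

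The other lists had few calls. Of all genes tested, 0.467% passed in both fits higher in muscle and 0.339% higher in skin. With the term alone these shares were 0.621% and 0.692%. With naming style in the model and in both fits, Treg identity genes had 2 of 16 higher in muscle (Gpr83 and Lrrc32) and 0 in skin, chemokine ligands 1 of 9 in muscle (Ccl5), costimulatory and coinhibitory receptors 1 of 17 in skin (Icos), and IL-2 and cytokine signalling 2 of 22 in skin (Il7r and Socs3). Lists with 0 calls in both fits had some with the term alone: TNF receptors and NF-kB 1 of 21 in skin (Birc3), type 2 helper genes 1 of 10 (Nfil3), circadian clock 1 of 16 (Nfil3), and glucocorticoid response 3 of 14 (Klf9, Cxcr4 and Dusp1). The calls on Birc3 and Klf9 were lost without muscle replicate 3, skin replicate 2 or 3, or spleen replicate 2 or 5 (largest adjusted p 0.11 and 0.074). In the remaining lists no gene passed in edgeR with the term. Of all genes, 12.3% had an unadjusted p under 0.05, 2.66% passed in DESeq2 and 0.48% in limma-voom, in either direction. Heat shock genes had 0 of 17, 7 at an unadjusted p under 0.05, all higher in skin, 2 in DESeq2 and 0 in limma-voom. For the 18 amino acid and ATF4 stress genes those counts were 0, 4, 1 and 0, again all higher in skin. For 25 cholesterol and fatty acid synthesis genes they were 0, 2, 2 and 0, also higher in skin. Of those 25, however, 21 had positive fold changes with the term, and the list's median was 0.2. For 18 genes of fat storage they were 0, 3, 0 and 0, the 3 being higher in muscle. Of 14 metallothionein and zinc transport genes 0 passed, 3 in muscle and 1 in skin had an unadjusted p under 0.05, 1 passed in DESeq2 and 0 in limma-voom. The 13 mitochondrially encoded genes had 0 on all 4 counts.

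**Figure D5:**
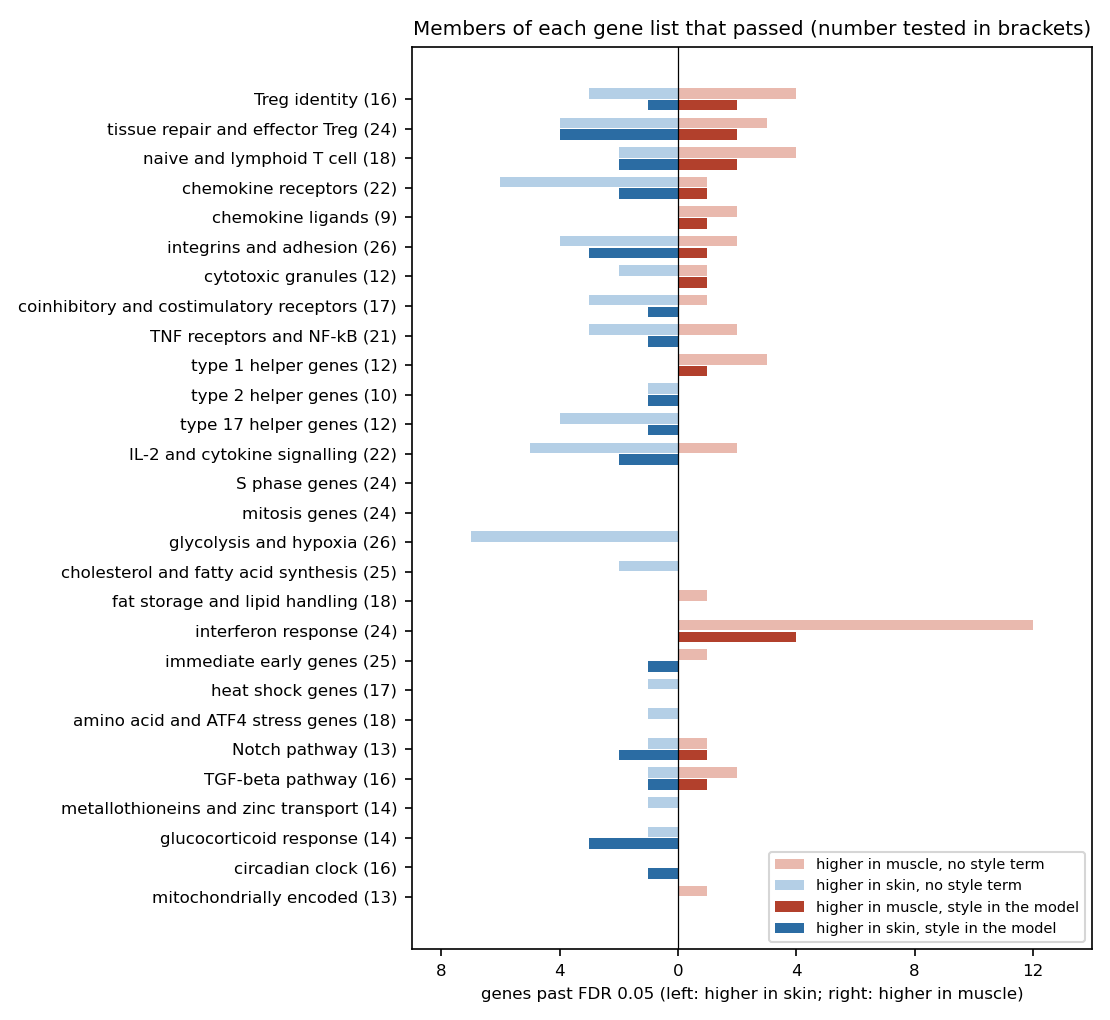
Number of genes past FDR 0.05 in each of 28 lists, higher in skin to the left and higher in muscle to the right, without the style term (pale) and with it (dark). The interferon list reaches 12 and 4 on the muscle side, and glycolysis and hypoxia 7 on the skin side without the term and 0 with it.

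Markers of other cell types were summed in each library. B cell markers lay between 244 and 333 CPM in muscle, between 434 and 532 in skin and between 557 and 1030 in spleen, nearly all of it Ighm, the IgM heavy chain (237, 300.5 and 317 CPM in muscle and 422, 518 and 479 CPM in skin; -1.17 ± 0.23, adjusted p = 0.0103). Without Ighm the muscle sums were 7.8 to 15.1 CPM and the skin sums 11.6 to 14.7. Macrophage and monocyte markers without Ctss came to 4.15 to 20.1 CPM in the muscle libraries and 3.93 to 18.9 in the skin libraries. Ctss itself was at 132, 103 and 127 CPM in muscle and 226, 201 and 172 in skin. None of 10 tested passed with the term, and 1 passed directly, higher in skin (2.27% of all genes). Dendritic and Langerhans cell markers without Cd74 were between 93.2 and 351 CPM in muscle and between 133 and 358 in skin, with Cd207 at 0 in both and none of 12 passing. Endothelial markers rested on Pecam1, which T cells also carry (119, 113 and 119 CPM in muscle and 58.5, 56.7 and 62.2 CPM in skin, 129.9 to 160.3 in spleen; 0.93 ± 0.17, adjusted p = 0.0064), and came without it to between 2.51 and 14 CPM in muscle and between 0.275 and 5.1 in skin. Fibroblast markers without Thy1 were between 16.3 and 70.2 CPM in muscle and between 17.2 and 134 in skin, where Col1a1 reached 38.3 CPM in replicate 3. Ighm and Pecam1 were the markers that edgeR called with the term in the 13 lists. At an unadjusted p under 0.05 the B cell list had 3 genes, all higher in skin, the macrophage, CD8 T and NK, gamma delta and skeletal muscle lists had 1 gene each and the dendritic and fibroblast lists 2 each, while neutrophil, mast cell, melanocyte, erythroid and keratinocyte markers had 0. DESeq2 called 2 B cell markers, both higher in skin, and 1 each of the dendritic, gamma delta and skeletal muscle lists, and limma-voom 0 outside Ighm and Pecam1. Over all genes 12.3% had an unadjusted p under 0.05 and 2.66% passed in DESeq2. The part of any of these cells in the values above was not tested.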

How the data were processed

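Bulk RNA libraries were prepared from 1 ng of total RNA of sorted Tregs with the Ovation Solo kit, per the labels' protocols. The deposited table holds raw read counts per gene, which the authors made on mouse genome build GRCm38. STAR, featureCounts and limma appear in the submitters' processing notes without role or version. How strand, multi-mapping reads and molecular identifiers were handled, and which annotation was used, is not stated there, so overlapping genes and near copies may share reads.

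Groups came from the tissue labels, and naming style from the column names. Of 46078 genes in the table, the 15617 that passed edgeR's expression filter were tested with edgeR 4.0.16 (R 4.3.3), TMM scaling and the robust quasi-likelihood F test on 15 libraries, with tissue and naming style as terms. Heart was left out. The difference of muscle and skin with the style term equals muscle minus Tregs-style spleen less skin minus Endo-style spleen. P-values were adjusted over all genes tested by the Benjamini-Hochberg method. The method was also run on simulated data, and the outcome is not given here. Alternatives included the fit without the style term, other scalings and filters, DESeq2 1.42.0, limma-voom (limma 3.58.1), and leaving out each muscle, skin and spleen library. Bone libraries were left out only together.

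The 28 gene lists and 13 marker lists, and the comparison itself, were chosen with earlier results of these data known. Genes named were the 12 largest each way that passed in both fits with a mean of at least 3 log2 CPM and no overlap of the groups, up to 3 per list each way, the 5 largest each way, at the same minimum level, that passed directly but not with the term, and a set of Treg genes. Chosen after their values were seen were Gzma, Klrc1, Ccr10, Ccr6, Trdc, Itgae, Itgb1, Ifng, Tbx21, Bach2, Ifit2, Tgtp1, Pkm, Slc16a3, Hk2, Ndrg1, Trat1, Bcl6, Tmem154, Rbpsuh-rs3 and those said in the report to be so chosen. Further list members are named for their levels, or as examples that did not pass. Gene positions are from GENCODE release M21. Library depths are given with the results and limit what can be seen of low genes. A few genes of the lists are not reported by name here.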

Additional observations from a re-analysis of the deposited data

Results flagged for a closer look

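In 6 genes that passed with the style term, muscle and skin stood on opposite sides of spleen, each past the threshold in its own comparison. Muscle was set against Tregs-style spleen and skin against Endo-style spleen, so the reference differed between the tissues. Higher in muscle than spleen and lower in skin were Cxcr3 (log2 difference of muscle and skin 2.12, with 0.85 for muscle and -1.27 for skin against spleen), Eya2 (2.21, with 1.02 and -1.18), Tmem154, a membrane protein (1.0, with 0.55 and -0.45), and Lrrc32 (0.8, with 0.40 and -0.40). Lower in muscle and higher in skin were Trat1, an adaptor of the T cell receptor (-1.32, with -0.82 and 0.50), and Bcl6, the repressor of follicular T cells (-1.31, with -0.57 and 0.74). Trat1 stood at 39.9, 27 and 42.5 CPM in muscle, 77.5, 101 and 85.2 in skin and 55.2 to 70.7 in spleen. Bcl6 stood at 43.9, 35.4 and 29.1 CPM in muscle, 52.2, 78.5 and 72.6 in skin and 34.9 to 65.1 in spleen, where the ranges overlap. Its spleen means were 40.5 CPM in the Endo style and 53.8 in the Tregs style. The difference itself was tested by the model with the style term, with adjusted p from 0.000125 for Cxcr3 to 0.0485 for Lrrc32.

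Among the named genes, 3 had 1 spleen library far from the other 5. Jag1 was at 4.49 CPM in spleen replicate 5, Il1rl1 at 82.7 CPM in spleen replicate 1 and Eya2 at 8.85 CPM in spleen replicate 4. Of 37 spleen groups examined in this way, chance gives about 1 in 20.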

How the results depend on the processing

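Counts of genes that passed moved most with the naming-style term and the libraries used. Against 97 higher in muscle and 108 higher in skin, the counts were 395 and 354 without the style term, 761 and 681 from the muscle and skin libraries only, 195 and 423 without a filter on low counts, 176 and 239 in DESeq2, 33 and 42 in limma-voom, and 60 and 66 without spleen replicates 1 and 2 together. An analysis of all 18 libraries, chosen after seeing the data, gave 44 higher in skin. Leaving out 1 library gave 42 to 164 higher in muscle and 47 to 364 higher in skin. Of genes passing in both fits, 73 higher in muscle and 53 higher in skin became 113 and 122 without the filter, 121 and 118 in DESeq2, 29 and 27 in limma-voom, 34 higher in skin with all 18 libraries, and 34 to 89 and 22 to 99 with 1 library left out. Between spleen styles, 482 higher and 259 lower in the Tregs style became 758 and 487 in DESeq2, 47 and 42 from spleen libraries only, and 93 to 1254 and 34 to 762 with 1 library left out. The cause of these moves was not tested beyond the number of libraries and genes in each fit. Of the 205 genes, DESeq2 called 205 again, limma-voom 74 and all 18 libraries 97, each with the same sign, and 29 passed in all 25 alternatives. The same-numbered muscle and skin libraries did not deviate together (r across genes -0.0743, -0.0448 and -0.0342), and with replicate number as a block the muscle and skin libraries gave 540 and 565 calls.

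Genes that did not pass changed sign under some settings. Without the style term, from muscle and skin libraries only, and with the block, Il10 was at 0.73, 0.72 and 0.69, Gata3 at 0.085, 0.079 and 0.068, Il1rl1 at -0.36, -0.37 and -0.39, Klrg1 at -0.16, -0.17 and -0.21, and Prune2 at -2.59, -2.6 and -2.62. With all 18 libraries Rora was at 0.12 and Prune2 at -1.02, and without spleen replicates 1 and 2 Gzmb was at 0.50 and Il1rl1 at -0.21. With 1 library left out Gzmb ran from -0.61 to 0.24, Il1rl1 from -0.23 to 0.18 and Prune2 from -0.030 to 3.82. Depth was lowest in Endo-style spleen, which limits what the style term can show for low genes.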
